A study of Rattus norvegicus with 10 samples.

Results

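The 10 genes followed here belong to the growth hormone, JAK2 and STAT5 pathway, and were measured in white adipose tissue of 10 male rats: Cish, Bcl6, Socs2, Socs3, Igf1, Ghr, Stat5a, Stat5b, Igfbp3 and Jak2. Every probe set of the rat expression array whose platform annotation gave 1 gene symbol, and that symbol among these 10, was taken. This gave 15 probe sets for the 10 genes, out of 31042 probe sets and 14217 genes measured. Cish and Bcl6 were picked because they differed between the diets in an earlier look at the same arrays, and the other 8 genes were added as the pathway around them. The diet differences of the 10 genes are therefore given as a description, with errors and with no test.

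The noodle group (animals 1, 4, 7, 10 and 13) ate a diet holding 30% instant noodle by weight, with 26% of its energy as fat. The control group (animals 2, 5, 8, 11 and 14) ate that diet with the seasonings left out. All animals were 13 weeks old, were pair-fed for 30 days (4 weeks in another field of the labels) at a daily ration of about 60 g per kg of body weight, and lived under 12 hours of light and 12 hours of dark. The labels name neither the fat depot nor the hour of sampling. The extraction text names brain, while the tissue field gives white adipose tissue. Adipocyte markers, of which 11 were measured, had a median of 12.2 on the log2 scale, led by the carbonic anhydrase gene Car3 at 13.6. The 6 measured brain markers had one of 5.72, led by the myelin gene Mbp at 8.76.

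Growth hormone binds its receptor, encoded by Ghr, and activates the kinase JAK2, which phosphorylates the transcription factors STAT5A and STAT5B. STAT5 then enters the nucleus, binds sites with the core TTCNNNGAA and induces Cish and Socs2, whose products bind the activated receptor and shut the signal off, and Igf1, the hormone that carries many effects of growth hormone on growth. Bcl6 encodes a transcriptional repressor that binds similar sequences, and in liver its transcript falls after growth hormone while those of Cish and Socs2 rise. In male rats growth hormone is released in pulses. In adipose tissue it is known for promoting lipolysis. The question put to the arrays was whether the STAT5-induced genes Cish, Socs2 and Igf1 opposed Bcl6 across the 10 animals.

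The 250 bases upstream of the Cish and Bcl6 start sites are printed because the levels of these 2 genes carry the result. Sequences are those of RefSeq on build GRCr8, 5′ to 3′, with every match to TTCNNNGAA in capitals. This motif reads the same on both strands. The Cish stretch is chr8:116850719-116850968 on the plus strand, and the Bcl6 stretch is chr11:90358503-90358752 on the plus strand.

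Cish: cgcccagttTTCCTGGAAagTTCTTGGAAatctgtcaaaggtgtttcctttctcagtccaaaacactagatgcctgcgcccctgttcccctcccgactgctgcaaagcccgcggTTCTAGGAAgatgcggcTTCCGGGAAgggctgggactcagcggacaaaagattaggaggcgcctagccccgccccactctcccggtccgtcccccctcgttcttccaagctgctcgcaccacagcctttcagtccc

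Bcl6: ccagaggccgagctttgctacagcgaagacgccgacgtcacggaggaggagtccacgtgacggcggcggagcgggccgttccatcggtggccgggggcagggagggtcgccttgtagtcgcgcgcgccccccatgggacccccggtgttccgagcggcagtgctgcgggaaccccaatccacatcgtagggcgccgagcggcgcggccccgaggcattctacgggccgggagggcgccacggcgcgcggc

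The Cish stretch held 4 matches. TTCCTGGAA began 241 bases before the start site, TTCTTGGAA 230, TTCTAGGAA 136 and TTCCGGGAA 119 bases before it. Among 33469 promoters of the same length, 7.67% held at least 1 match and 2 promoters held 4 or more. The Bcl6 stretch held 0 matches in this window, and so did those of Socs3, Igf1, Ghr, Stat5a, Stat5b, Igfbp3 and Jak2. The longer motif TTCNNNNGAA, with 4 bases between the arms, was found in none of these 9 promoters and in 6.25% of all promoters. Socs2 had no promoter among the sequences used, so it was not searched. A match is a description of letters, not of a bound site.

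The deposited values split the 15 probe sets into 10 that varied over the 10 arrays and 5 that did not. A probe set with an SD of 0.01 log2 units or less over the arrays is called flat, and 8.4% of all probe sets were not flat. The flat ones were those of Socs3, Stat5a, Stat5b and Jak2 and 1 of the 2 for Ghr. The SD nearest below the limit was 0.00046, of Stat5a, and the nearest above it was 0.132, of the other Ghr probe set, so that no member lay near the limit. For 6 genes (Cish, Bcl6, Socs2, Igf1, Ghr and Igfbp3) a difference can thus be read, and for Socs3, Stat5a, Stat5b and Jak2 it cannot. The labels do not say why most values of the table are flat, and a fold below is a fold on the deposited scale.

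**Figure D1:**
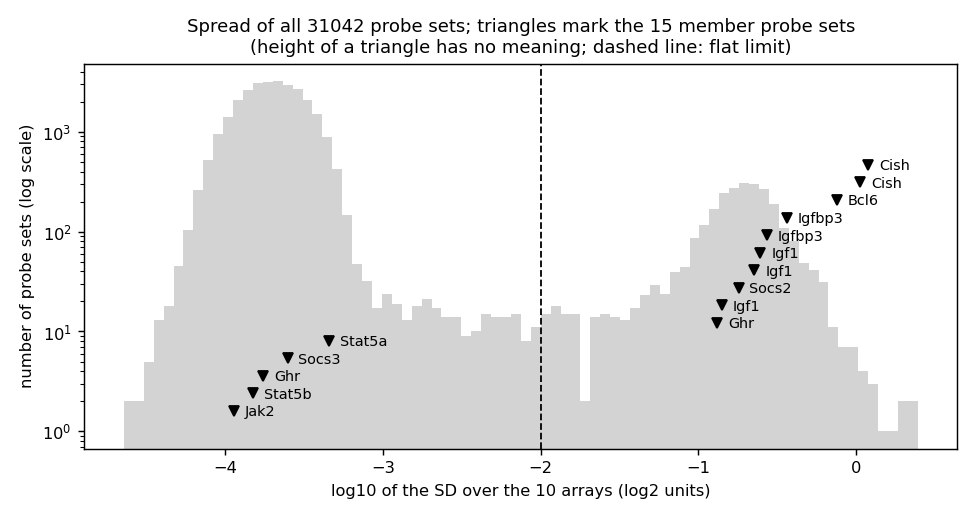
SD over the 10 arrays of each of the 31042 probe sets, on a log10 axis, as a histogram with a logarithmic count axis. Triangles mark the 15 member probe sets, whose height on the plot carries no value, and the dashed line is the limit of 0.01. The members fall into 5 flat probe sets, the highest of them Stat5a, and 10 others, the lowest of them Ghr.

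Cish, the feedback inhibitor of STAT5 signalling, was near its lowest value in every noodle animal and high in 3 of 5 controls. On probe set 1378586_at the noodle animals stood at 6.11, 6.002, 6.02, 6.01 and 6.11 (animals 1, 4, 7, 10 and 13). The controls stood at 6.19, 5.99, 8.06, 8.45 and 8.22 (animals 2, 5, 8, 11 and 14). Controls 8, 11 and 14 were thus far above the other 7 animals, and controls 2 and 5 lay with the noodle group. The gap between the 2 sets, from 6.19 to 8.06, made up 76.1% of the whole range and corresponds to a 3.66-fold difference. The lower set, at 5.99 to 6.19, lay near the array medians, which ran from 6.17 to 6.18. Whether its levels stood above background was not tested.

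The other Cish probe set, 1388233_at, drew the same division of animals. The noodle animals stood at 5.60, 5.60, 5.55, 5.73 and 5.65. Control values were 5.76, 5.83, 8.01, 8.29 and 8.13. The gap from 5.83 to 8.01 was 4.53-fold, and the order of the 3 high animals, 11 above 14 above 8, was the same on both probe sets. Here every noodle animal lay below every control, by as little as 0.035 between noodle animal 10 and control 2. Of the 10 member probe sets that were not flat, this was the 1 whose groups did not overlap, against 0.614% of all probe sets that were not flat. In either direction that share was 0.959%, and 0.718% with the flat probe sets counted too. Among the 7 low animals the probe sets shared no order, with an r of -0.31 after the diet means were removed. On 1388233_at these animals, at 5.55 to 5.83, lay near the low end of the arrays. The 20th percentile of all array values was 5.60, and the array medians ran from 6.17 to 6.18. Whether the low levels stood above background was not tested. The lack of overlap and the size of the gap on this probe set are read with that limit. In bulk tissue, fewer cells of a type and less RNA per cell cannot be told apart.

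As group means, Cish was 6.05 ± 0.05 with the noodle diet and 7.38 ± 1.19 in the controls on 1378586_at (SD, n = 5), a difference of -1.33 ± 0.52 (SE of the limma fit) or 2.51-fold. On 1388233_at the means were 5.63 ± 0.07 and 7.21 ± 1.29, a difference of -1.58 ± 0.56 or 2.99-fold. The SDs show where the spread lay, in the controls alone. Neither mean describes an animal of the control group, since no control stood between 6.19 and 8.06 on the first probe set. Differences of the group medians, -2.04 and -2.41, were larger for the same reason.

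Bcl6, the repressor, showed the opposite order. The noodle animals stood at 7.80, 8.63, 8.71, 8.98 and 8.83 on its probe set 1379368_at. Control levels were 8.46, 8.08, 7.44, 6.97 and 7.003. The 3 lowest animals were controls 11, 14 and 8, the 3 with high Cish, and 4 of 5 noodle animals lay above every control. Noodle animal 1, at 7.80, lay below controls 2 and 5, so the groups overlapped. The means were 8.59 ± 0.46 and 7.59 ± 0.66 (SD, n = 5), a difference of 1.003 ± 0.35 (SE) or 2.004-fold. Unlike Cish, Bcl6 was spread without a wide gap. Its largest step, from 7.003 to 7.44, made up 21.5% of its range.

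Over all 31042 probe sets, limma called 0 at a Benjamini-Hochberg adjusted p of 0.05, or 0% (lowest adjusted p = 0.409, and 1481 probe sets at an unadjusted p under 0.05). The probe sets of Cish and Bcl6 were thus not called either. Their differences were smaller with the level of the hybridization controls, control transcripts added to every array, as a covariate: -0.63 ± 0.48 and -0.80 ± 0.51 for Cish and 0.45 ± 0.26 for Bcl6 (SE). A sign of RNA quality, the distance between the 3-prime and 5-prime ends of the Gapdh and Actb transcripts on the array, was 0.95 ± 0.084 in the controls and 0.837 ± 0.069 with the noodle diet (SD, n = 5). An exact permutation test gave p = 0.048, or an adjusted p = 0.19 over 4 array measures. With it as a covariate the differences were larger, -1.99 ± 0.60 and -2.22 ± 0.67 for Cish and 1.37 ± 0.43 for Bcl6 (SE).

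**Figure D2:**
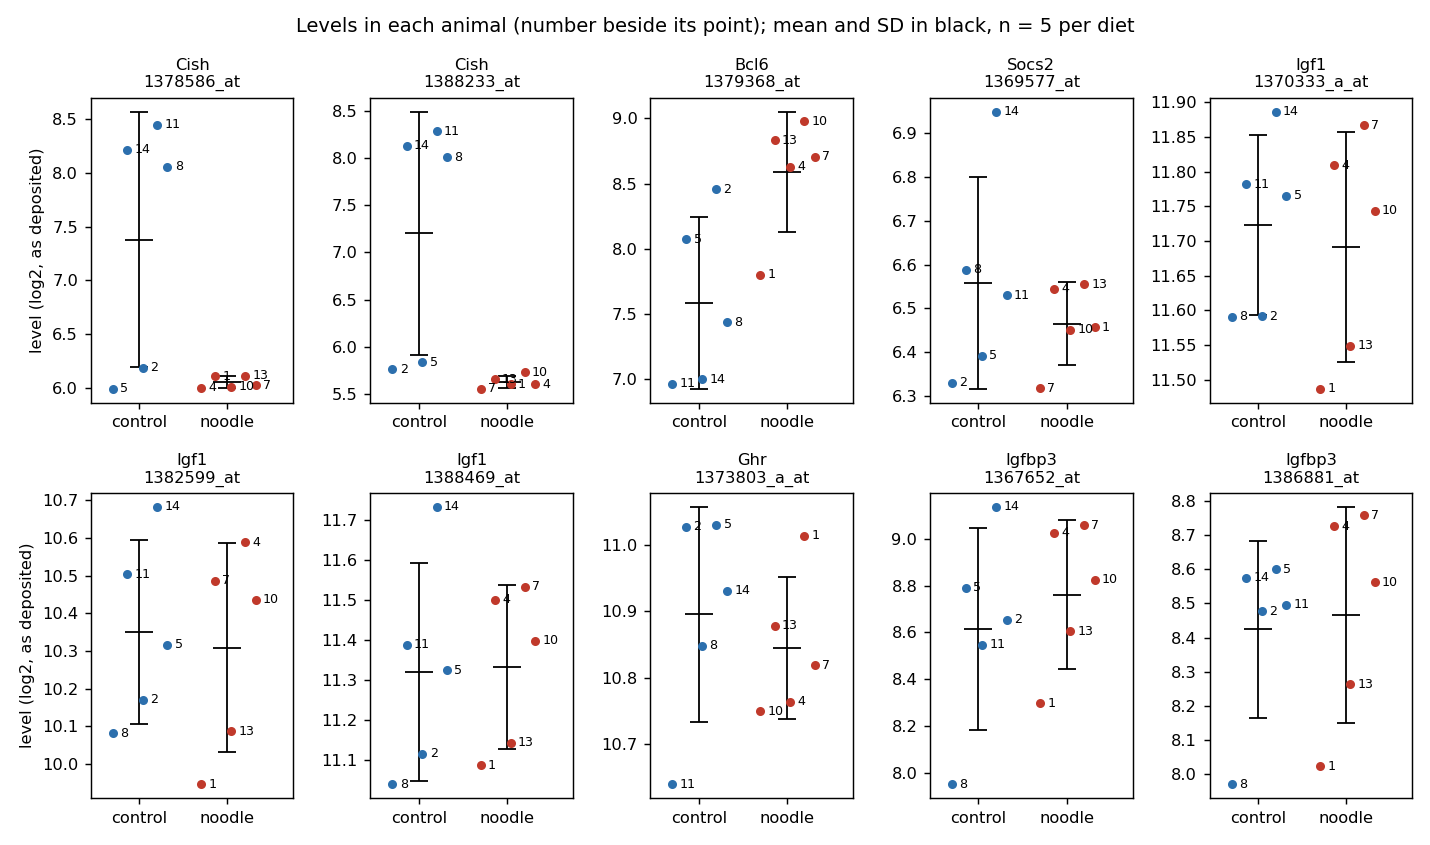
Level of each of the 10 member probe sets that are not flat, in log2 units as deposited, for the 5 control animals (blue) and the 5 noodle animals (red), with the animal number beside each point and the mean and SD in black. Vertical axes differ between panels and do not start at 0. Cish stands near 8 in controls 8, 11 and 14 on both probe sets and near 6 in the other animals, while the Bcl6 levels of these 3 controls are the lowest of the 10.

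**Figure D3:**
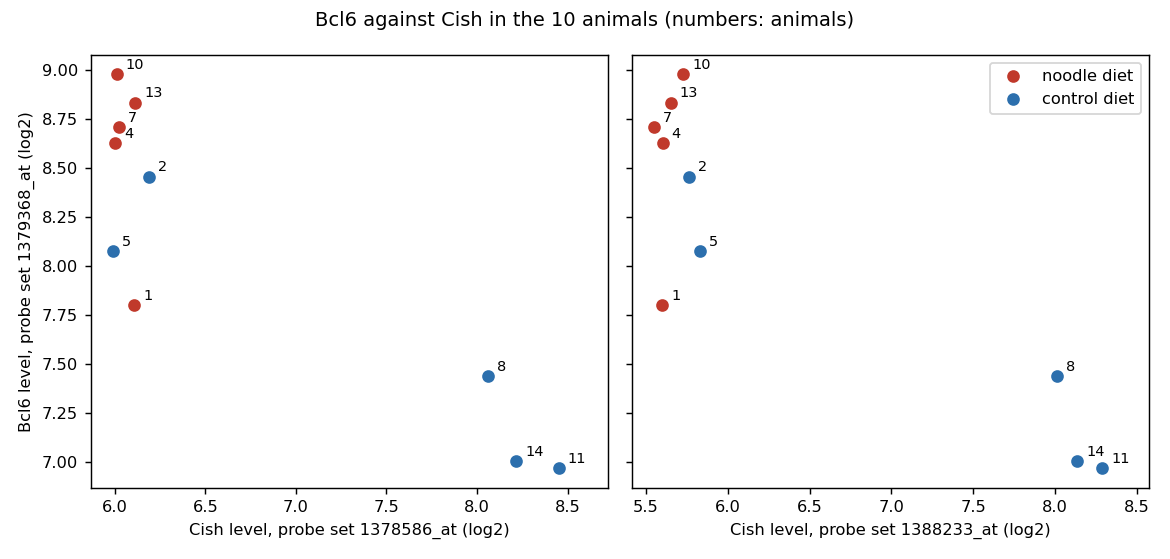
Bcl6 level against Cish level in the 10 animals, for both Cish probe sets, in log2 units, with noodle animals in red, controls in blue and animal numbers beside the points. The 3 controls with Cish above 8 have Bcl6 levels of 6.97 to 7.44, and the 7 animals with low Cish have Bcl6 levels of 7.80 to 8.98.

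The relation of Cish to the other genes had been planned over all 10 animals, with the diet means removed. Over them, the r of Cish (1378586_at) was -0.788 with Bcl6, 0.667 with Socs2 and 0.176 with Igf1, and the rho was -0.758, 0.552 and 0.042. These values are given as a description with no p, because the animals fell into separate sets by Cish, and they rest on controls 8, 11 and 14. Within the 7 animals with low Cish the relations could not be judged. There Cish ran only from 5.99 to 6.19 on one probe set and from 5.55 to 5.83 on the other, and the probe sets did not order the animals alike. The r of Cish with Bcl6 was -0.078 (exact permutation p = 0.788, rho 0.32) on the first and 0.33 on the second (exact permutation p = 0.508). On the first it was -0.933 over the 5 animals left without the 2 farthest from the median (exact permutation p = 0.167, with only 24 pairings). That of Cish with Socs2 was -0.014 (exact permutation p = 0.938, rho -0.21) on the first and 0.45 on the second (exact permutation p = 0.408). That of Cish with Igf1 was -0.804 (exact permutation p = 0.042, rho -0.61) on the first and -0.05 on the second (exact permutation p = 0.95). With the Igf1 probe sets 1382599_at and 1388469_at, the first Cish probe set gave -0.727 and -0.809 (exact permutation p = 0.021 and 0.033, not adjusted). That of Cish with Dbp, a clock gene described further on, was -0.15 (exact permutation p = 0.65, rho -0.11) on the first and 0.837 on the second (exact permutation p = 0.029). None of these values shows whether an opposition was present or absent among the 7. The tests were two-sided and permuted animals within their diet. The family held 9 relations and left out the planned one of Cish with Bmal1, another clock gene. The lowest adjusted p of the r of these 9 was 0.375.

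Socs2, another STAT5-induced feedback inhibitor, did not share the wide division. The noodle animals stood at 6.46, 6.54, 6.32, 6.45 and 6.55 on probe set 1369577_at. In the controls it stood at 6.33, 6.39, 6.59, 6.53 and 6.95. Controls 14, 8 and 11 were the highest of their group, but control 11, the highest for Cish, lay below noodle animals 4 and 13. The Socs2 levels, at 6.32 to 6.95, lay not far above the array medians, which ran from 6.17 to 6.18. Whether they stood above background was not tested, and the narrow range of Socs2 is read with that limit. The difference between the diets was -0.09 ± 0.11 (SE), less than the SD of 0.242 among controls. Across all 10 animals, with the diet means removed, the r of Socs2 with Bcl6 was -0.58 (exact permutation p = 0.134, adjusted p = 0.546) and rho was -0.503 (exact permutation p = 0.185). Without the 2 animals farthest from the median of Bcl6 it was -0.405 (exact permutation p = 0.374). Its sign was that of an opposition to Bcl6, at a size that 10 animals do not separate from none.

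Igf1, which encodes insulin-like growth factor 1, differed between the diets by less than its SE. On the brightest of its 3 probe sets, 1370333_a_at, the noodle animals stood at 11.49, 11.81, 11.87, 11.74 and 11.55. The controls stood at 11.59, 11.76, 11.59, 11.78 and 11.89. Noodle animals 1 and 13 and controls 2 and 8 were the 4 lowest on all 3 probe sets, and the groups overlapped throughout. The difference was -0.03 ± 0.09 (SE), and those of 1382599_at and 1388469_at were -0.04 ± 0.16 and 0.01 ± 0.15. Controls 8 and 11, alike in Cish, stood at 11.59 and 11.78. The r of Igf1 with Bcl6 over the 10 animals was -0.05 (exact permutation p = 0.903, adjusted p = 0.938) and rho was -0.018 (exact permutation p = 0.973). It was 0.44 without the 2 animals farthest from the median of Bcl6 (exact permutation p = 0.326). Igf1 and Socs2 had an r of 0.243 (exact permutation p = 0.515, adjusted p = 0.938), a rho of -0.018 (exact permutation p = 0.971) and an r of 0.078 without the 2 farthest animals (exact permutation p = 0.809). Of Cish, Socs2 and Igf1, then, only Cish took opposite extremes to Bcl6 in the same 3 animals.

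Igfbp3, the main carrier of IGF1 in blood, followed neither Cish nor Bcl6. On 1367652_at the noodle animals stood at 8.30, 9.02, 9.06, 8.82 and 8.60. In the controls it was 8.65, 8.79, 7.95, 8.55 and 9.14. The 3 controls with high Cish thus included the lowest (8) and the highest (14) animal of the 10. The diets differed by 0.15 ± 0.23 (SE), and on 1386881_at, where control 8 was again lowest at 7.97, by 0.04 ± 0.18. There control 14, at 8.57, lay below noodle animals 4 and 7, at 8.72 and 8.76. Noodle animal 1 was the lowest of its group on both probe sets, as for Bcl6. The relation of Igfbp3 to Cish and Bcl6 was not tested.

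Ghr, the receptor, stood at 11.01, 10.76, 10.82, 10.75 and 10.88 in the noodle animals on 1373803_a_at. Control values were 11.03, 11.03, 10.85, 10.64 and 10.93. Control 11, the animal with the most Cish, had the lowest value, while controls 8 and 14 lay inside the noodle range. The difference was -0.05 ± 0.08 (SE). The other Ghr probe set, 1368924_at, was flat at 9.32.

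The signal carriers themselves could not be compared. Jak2 was flat at 6.91, Stat5a at 7.33 and Stat5b at 6.31 in all animals, and the inhibitor Socs3, best known as a brake on cytokine signalling through STAT3, was flat at 5.98. Every noodle animal was above every control for Stat5b, as in 0.383% of all probe sets. The distance is 0.0002, less than the 0.0017 by which the array medians differed between the groups, and its direction is not read as a result.

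The division by Cish was set beside the clock genes, which divide these animals in another way. Bmal1, an activator of the clock, stood at 7.22, 7.06, 7.14, 6.32 and 6.36 in the noodle animals and between 5.95 and 6.21 in the controls. Dbp, a clock-driven factor, stood at 6.34, 7.03, 6.71, 8.32 and 8.29 in the noodle animals and between 8.01 and 8.85 in the controls. Noodle animals 1, 4 and 7 stood apart in both genes, whereas controls 8, 11 and 14 stood apart in Cish and did not in Dbp. The Cish-high animals bore the highest numbers of their group and the Bmal1-high animals the lowest of theirs. The labels do not say whether the numbers follow the order of handling. With the animal number as a covariate, the diet differences were -1.22 and -1.45 for Cish and 0.976 for Bcl6. Over the 10 animals, with the diet means removed, the r of Bcl6 with Dbp was 0.42 (exact permutation p = 0.182, adjusted p = 0.546), rho was 0.44 (exact permutation p = 0.184) and r was 0.47 without the 2 animals farthest from the median of Bcl6 (exact permutation p = 0.275). It was 0.725 with the animal number also removed (exact permutation p = 0.029, adjusted p = 0.15), 0.159 without noodle animal 1 (exact permutation p = 0.538) and 0.639 without control 2 (exact permutation p = 0.046, adjusted p = 0.375). Among the 7 animals with low Bmal1, the r of Bcl6 with Bmal1 was 0.088 (exact permutation p = 0.879, adjusted p = 0.938) and rho was 0.11 (exact permutation p = 0.85). Without the 2 farthest animals it was 0.927 over 5 animals (exact permutation p = 0.167). That test had 12 pairings, too few for a p under 0.05. Over all 10 animals, as planned, r was -0.376 and rho -0.406, given as a description because the animals fell into separate sets by Bmal1.

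Other measures of the arrays and cells were set beside Cish, and not all of them followed it. The mean of the hybridization controls was highest in controls 8, 11 and 14, at 10.1, 10.1 and 9.98, followed by noodle animal 1 at 9.91 and control 5 at 9.88, which had low Cish. The mesothelial markers, of which 7 of 8 were measured and 7 were not flat, averaged 6.93, 7.37 and 7.57 in controls 8, 11 and 14. All 7 were lower with the noodle diet by their means. They averaged 6.24 to 6.98 in the noodle group and 6.197 to 7.57 in the controls. Noodle animal 13, at 6.98, exceeded control 8, at 6.93, while its Cish was 6.11 against 8.06. Macrophage markers (12 of 12 measured) averaged 8.15 to 8.66 in the controls and 8.26 to 8.73 in the noodle group, with controls 11 and 14 at the lowest and highest of the controls, and 11 of the 12 had the higher mean with the noodle diet. Red blood cell markers, of which 4 of 5 were measured, all had the lower mean with the noodle diet. They averaged 8.31 to 8.73 in the noodle group and 8.52 to 9.06 in the controls, with control 11 at 8.52 and controls 8 and 14 at 9.06. The 9 measured T and B lymphocyte markers were all flat, with a median level of 6.01. The distance between the 3-prime and 5-prime ends was 0.948, 0.956 and 0.823 in controls 8, 11 and 14 and 0.96 and 1.06 in controls 2 and 5. The part of the hybridization level, the RNA quality and the cell markers in the Cish and Bcl6 levels was not tested beyond the covariate fits above.

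**Figure D4:**
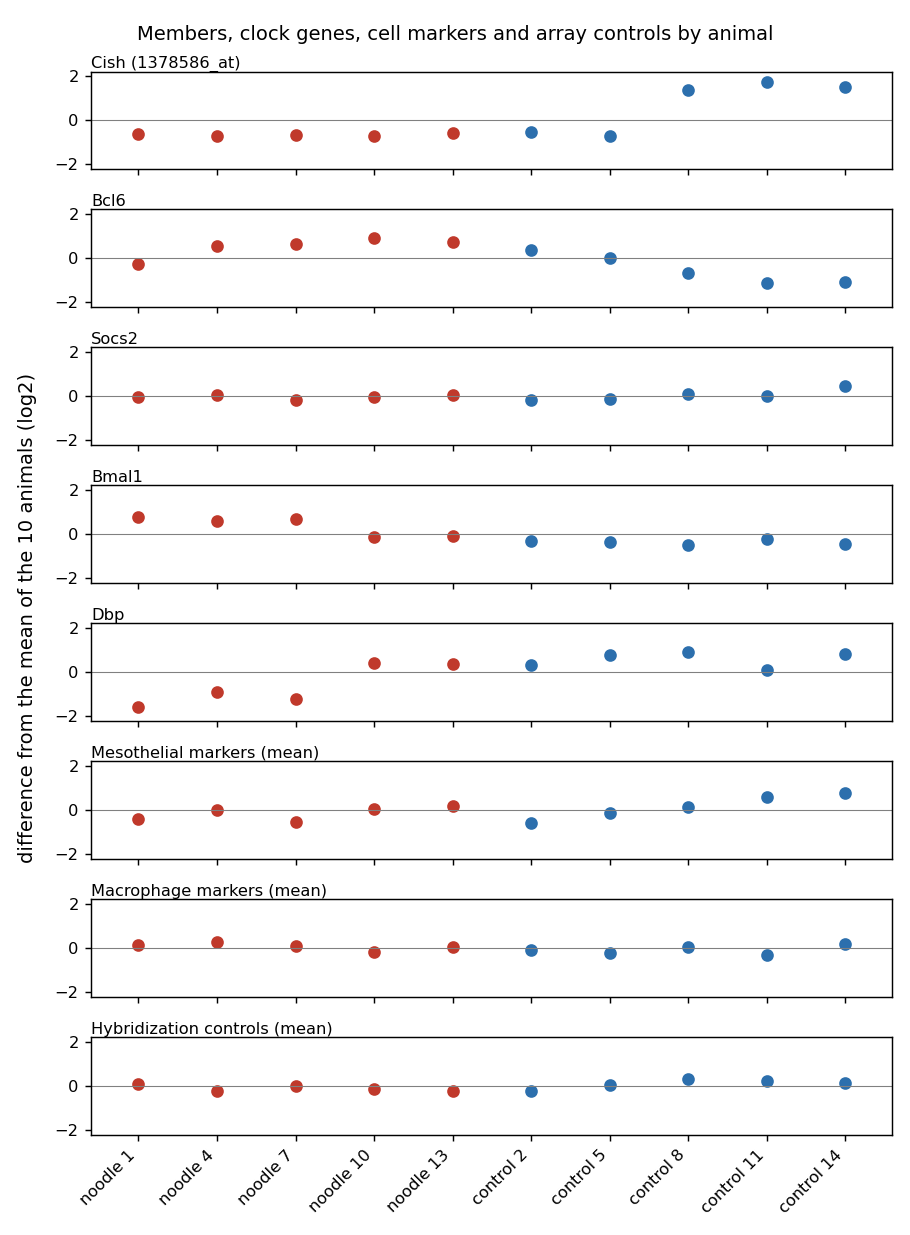
Difference of each animal from the mean of the 10 animals, in log2 units and on 1 common scale, for Cish, Bcl6, Socs2, Bmal1, Dbp, the means of the mesothelial and macrophage markers and the mean of the hybridization controls, with noodle animals in red and controls in blue. Controls 8, 11 and 14 stand apart in Cish, and noodle animals 1, 4 and 7 in Bmal1 and Dbp.

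The wider pathway gave no called gene. Of 79 further genes in lists of receptors, kinases, STATs, inhibitors, the IGF axis, other STAT5 or growth-hormone-responsive genes and Bcl6 corepressors, 74 were measured, 26 were not flat and 0 passed in either direction. Of the 26, 12 were higher and 14 lower with the noodle diet, with a median difference of -0.001. For comparison, 1162 of all probe sets that were not flat were higher and 1445 lower, with a median of -0.012. Differences below are in log2 units, noodle minus control, ± SE with n = 5.

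Among receptors, the prolactin receptor gene Prlr differed by 0.18 ± 0.18, Il6st, the shared receptor chain of the interleukin-6 family, by -0.15 ± 0.13 and Il6r, the interleukin-6 receptor, by -0.04 ± 0.03. The kinase gene Jak1 differed by -0.11 ± 0.08. Among inhibitors and adaptors, the adaptor gene Sh2b2 differed by 0.10 ± 0.24, the phosphatase gene Ptpn6 by 0.01 ± 0.02 and Grb14, which encodes an adaptor that inhibits the insulin receptor, by 0.00 ± 0.02. The groups overlapped in each of these genes.

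In the IGF axis, Igfbp2, a binding protein of IGF1 and IGF2, had the largest difference, -0.65 ± 0.56. It stood at 7.23, 7.33, 6.49, 7.79 and 8.03 in the noodle animals and at 6.55, 7.42, 7.98, 8.67 and 9.53 in the controls. Controls 8, 11 and 14 were again the highest of their group, but noodle animal 13 exceeded control 8. The largest step between neighbouring animals was from 8.67 to 9.53, less than 50% of the range. Within each diet, Igfbp2 ordered the animals as the mean of the mesothelial markers did. The part of mesothelial cells in its level was not tested. Igf2 differed by 0.06 ± 0.12, Igfbp5 by 0.05 ± 0.14 and Igfbp6 by 0.05 ± 0.22.

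Among other STAT5 or growth-hormone-responsive genes, the kinase gene Pim3 differed by -0.59 ± 0.17 and the growth regulator Myc by -0.36 ± 0.17. Pim3 stood at 8.53, 8.44, 8.17, 8.82 and 7.83 in the noodle animals and at 8.77, 8.97, 8.87, 8.97 and 9.17 in the controls. All controls were thus high for Pim3, including 2 and 5 with low Cish, and the groups overlapped in noodle animal 10. Myc stood at 7.10, 7.47, 7.36, 7.59 and 7.36 in the noodle animals and at 7.23, 7.54, 8.01, 7.84 and 8.03 in the controls, with the 3 highest values in controls 8, 11 and 14. The immediate early gene Fos differed by -0.09 ± 0.59, the stress gene Gadd45g by -0.24 ± 0.22, Pdk4, which restrains pyruvate oxidation, by -0.10 ± 0.21 and the transcription factor genes Cebpd and Cebpb by -0.07 ± 0.08 and 0.05 ± 0.11. The cyclin genes Ccnd1 and Ccnd2 differed by 0.09 ± 0.14 and -0.03 ± 0.14, the survival gene Mcl1 by 0.03 ± 0.09, the protease inhibitor gene Serpina3n by 0.05 ± 0.13, the regulatory subunit gene Pik3r1 by -0.04 ± 0.13 and Hsd11b1, which reactivates glucocorticoids, by -0.003 ± 0.096.

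The list of Bcl6 and its partners held 9 measured genes, of which 3 were not flat. Of these, Bcl6 itself was picked for its diet difference, which leaves 2 genes. Bcl6b, a close relative of Bcl6, differed by 0.17 ± 0.08 and the corepressor gene Ncor1 by 0.26 ± 0.21. Bcl6b stood at 6.32, 6.61, 6.37, 6.38 and 6.32 in the noodle animals and at 6.38, 6.37, 6.10, 6.199 and 6.11 in the controls. Its 3 lowest values were in controls 8, 11 and 14, as for Bcl6. Its other 3 probe sets were flat.

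**Figure D5:**
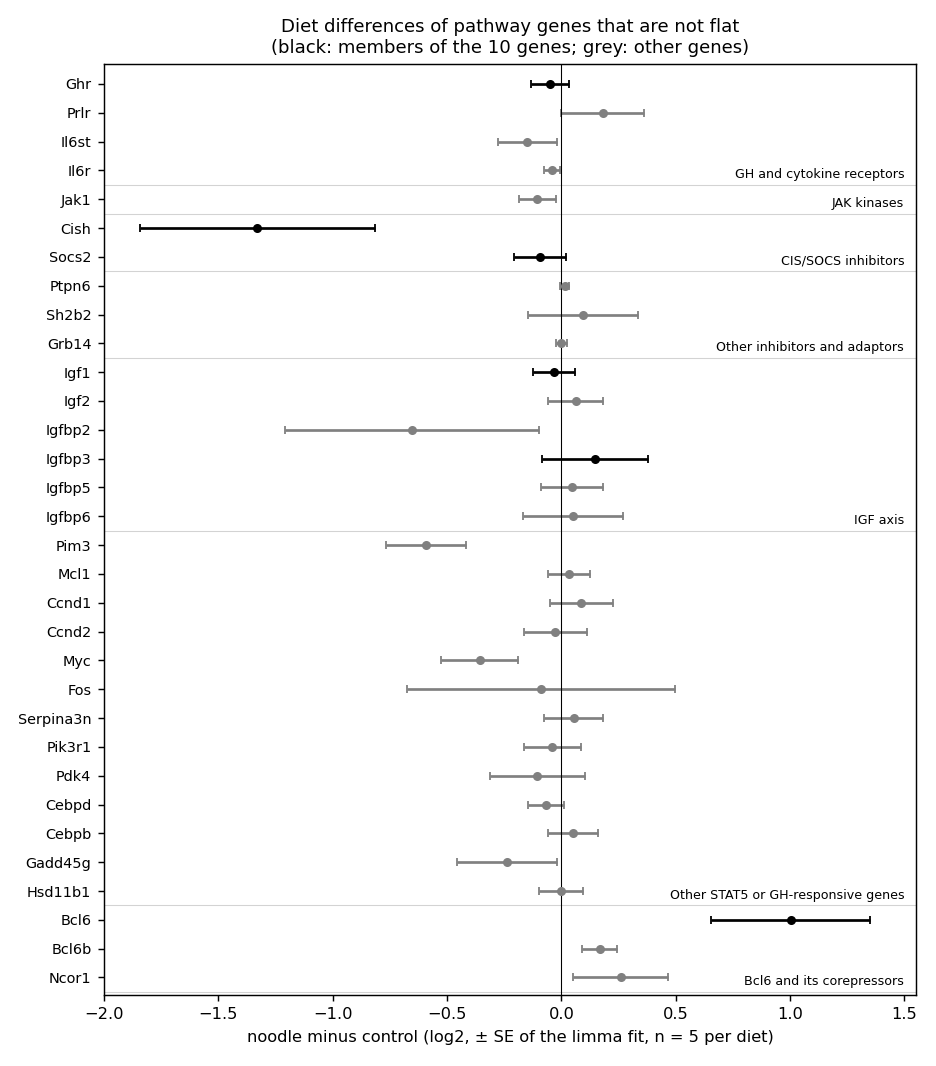
Difference between the diets (noodle minus control, log2 units, ± SE of the limma fit, n = 5 per diet) for the 32 pathway genes with a probe set that is not flat, grouped by list, with the members in black and other genes in grey. Cish, at -1.33, and Bcl6, at 1.003, lie farthest from 0 on either side, but both were picked for their diet difference on these arrays. Over all probe sets, 0 genes passed the threshold.

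The genes most like Cish over the 10 animals, by r after the diet means were removed, were Rasgef1b (0.974), Vnn1 (0.928), Rgs3 (0.904), Dpep1 (0.899) and Plac8 (0.889), among 1525 genes with a probe set of SD above 0.1. These values rest on the 3 controls with high Cish and are a description. Rasgef1b, a guanine nucleotide exchange factor gene, stood between 6.57 and 6.96 in the noodle animals. Those of the controls were 6.86, 6.77, 8.33, 8.55 and 8.69, again with controls 8, 11 and 14 above the other 7 animals. The genes with the lowest r were Scn7a (-0.83), Mif4gd (-0.814), Agpat3 (-0.804), Tab3 (-0.79) and, the fifth, Bcl6 itself (-0.788).

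The genes most like Bcl6 were Etv3 (0.926), Acyp2 (0.897), Mif4gd (0.887), Ubr3 (0.88) and Adamts1 (0.877). Etv3, a transcription factor gene of the ETS family, stood at 7.89, 8.37, 8.33, 8.35 and 8.26 in the noodle animals. In the controls it was 8.37, 8.37, 8.04, 7.93 and 7.70. Noodle animal 1 was low among the noodle animals and controls 8, 11 and 14 among the controls, as for Bcl6, but controls 2 and 5 were as high as the noodle animals. The genes with the lowest r were Cd14 (-0.903), Asgr2 (-0.832), Rasgef1b (-0.823), Zfp36l1 (-0.797) and Cish (-0.788).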

How the data were processed

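White adipose tissue of 10 rats, 5 per diet, was profiled on 1 array per animal from 100 ng of total RNA. Per probe set and array, 1 value was deposited, and its range fits a log2 scale. The labels state neither the log base nor the background correction, summarisation or normalization that the authors used. Array medians lay between 6.17 and 6.18 and correlations between arrays between 0.993 and 0.998. The tests leave out 57 control probe sets. On the array, 20832 probe sets had 1 gene symbol and 436 several, and 20764 were matched to the current gene table, with 0 symbols changed. The number of arrays limits the precision.

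Diets were compared with limma 3.58.1 in R 4.3.3 (lmFit, eBayes, two-sided, Benjamini-Hochberg over 31042 probe sets), tested on simulated data. Where a gene had several probe sets, the brightest that was not flat stood for it in lists and correlations. Correlations used values with the diet means removed and exact permutation of animals within diets. The pairings numbered 14400 for 10 animals and 240 for 7, with fewer where animals were left out. Where the largest gap between neighbouring animals exceeded 50% of a gene's range, with at least 3 animals on either side, r was computed only within the larger set. That rule was added after the data were examined and replaced the planned relations over all 10 animals, whose r and rho are given as a description. Members and lists were chosen with earlier results of these data known. All members, every list gene that was not flat and the 5 genes most and least like Cish and Bcl6 were named. No animal number occurs in both groups, and the labels, which speak of paired feeding, do not say which animals were paired. Alternatives were other scalings, filters, priors, weights, covariates and probe sets, and leaving out each animal in turn.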

Additional observations from a re-analysis of the deposited data

Results flagged for a closer look

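In 7 of 80 groups of 5 animals examined, 1 animal lay far from the other 4 relative to the range, where chance gives about 1 in 20, or 4. Among the members this was Igfbp3 (1386881_at) in control 8, at 7.97 against 8.48 to 8.60 in the other controls. Among pathway genes, Il6st stood at 9.28 in control 14 against 8.56 to 8.74, and Jak1 at 10.62 in control 14 against 10.18 to 10.31. Mcl1 stood at 8.38 in noodle animal 1 against 8.72 to 8.77, and at 8.40 in control 5 against 8.65 to 8.73. Bcl6b stood at 6.61 in noodle animal 4 against 6.32 to 6.38. The mean correlation of control 14 with the other arrays was 0.995, against 0.996 in each of the other controls. Cish is not among these, since 3 of its controls were high together.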

How the results depend on the processing

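No paired analysis was possible because no animal number occurs in both groups and the labels, which speak of paired feeding, do not say which animals were paired. No member difference moved by more than the SD between replicates under any alternative run. For Cish that SD is wide, because the controls spread by 1.19 and 1.29 on its probe sets, against 0.05 and 0.07 in the noodle group. A large change of Cish would thus not count as a move. Over all alternatives Cish ranged from -2.04 to -0.63 (1378586_at) and from -2.41 to -0.80 (1388233_at) and Bcl6 from 0.45 to 1.37, with the smallest sizes under the hybridization covariate, and none of the 3 turned. Differences of Socs2, Igf1 and Igfbp3 turned under some. The number of called probe sets was 0 to 1 when single animals were left out, the 1 being Emg1 without control 14, and 0 under the other alternatives. The number of flat member probe sets was 5 at limits of 0.001 and 0.1 too. Correlations turned more often, and none of those adjusted over the family passed. With Spearman's rho, Socs2 with Igf1 was -0.018 and Cish with Bcl6 0.32. With the diet means kept, Bcl6 with Dbp was -0.26 and Cish with Dbp 0.028. With the 3-prime to 5-prime difference removed, Cish with Socs2 was 0.14. With the animal number removed, Bcl6 with Igf1 was 0.031, Cish with Bcl6 0.034, Cish with Socs2 0.017 and Bcl6 with Bmal1 -0.16. Without the 2 animals farthest from the median of Bcl6, Bcl6 with Igf1 was 0.44. With the other Cish probe set, Cish with Bcl6 was 0.33, with Socs2 0.45 and with Dbp 0.84. Without single animals the ranges were -0.50 to 0.22 for Bcl6 with Igf1, -0.25 to 0.47 for Socs2 with Igf1, -0.51 to 0.68 for Cish with Bcl6, -0.30 to 0.27 for Cish with Socs2, -0.49 to 0.087 for Cish with Dbp, 0.16 to 0.64 for Bcl6 with Dbp, -0.71 to -0.41 for Bcl6 with Socs2 and -0.20 to 0.78 for Bcl6 with Bmal1. For Cish (1378586_at) with Igf1 the range was -0.92 to -0.77. The cause of these changes was not tested.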
